A study of Gallus gallus with 5 samples.

Results

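The egg coat genes, which encode the zona pellucida glycoproteins, were examined in broiler breeder hens, in granulosa cells from follicles of 6–8 mm. Members were the genes whose symbol is ZP followed by a digit, ZPD or a symbol starting with ZPAX. This gave ZP1, ZP2, ZP3, ZP4 and ZPAX by symbol, and ZPD was found under UMOD, the symbol for which RefSeq gives ZPD as a synonym. These are 6 of the 24356 genes listed, and all 6 passed the minimum mean of 10 normalized counts that left 13305 genes for testing. The name ZPD rests on that synonym alone.

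Libraries came from 2 FF hens, fed ad libitum, and 3 RF hens, kept on a restricted feed allowance. The diets ran for 6 weeks from the age of 28 weeks, with 1 pen per diet. Up to that age all hens were raised under the same commercial guidelines, and they were then assigned to a diet at random. For RF hens this meant that feed restriction went on. Granulosa cells of 5 to 6 follicles were pooled within each hen, so that each library is 1 hen. FF hens were chosen for sequencing because they had many preovulatory follicles and RF hens because they had a normal number, so diet, pen and follicle number cannot be told apart. A further FF library, which the authors discarded as an outlier in clustering, was not analysed here.

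The egg coat of birds is the inner perivitelline layer, a mesh of zona pellucida glycoproteins between the oocyte and the granulosa cells to which sperm bind. In the hen its proteins come from several tissues. ZP3 and ZPD are known as products of the granulosa cells, ZP1 is made mainly by the liver under estrogen and reaches the follicle in the blood, and ZP2 and ZP4 are known as products of the oocyte. ZPAX is a further coat protein of frogs and birds that is related to ZP2. No sequences of these genes or proteins were at hand, so none are printed.

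The values are normalized counts per gene, which are read counts divided by a size factor for each library and rounded to whole numbers. They are not corrected for transcript length, so a value can be compared between libraries but only loosely between genes. They summed to 28891495 to 29491091 in FF libraries and 25929234 to 27277087 in RF libraries. The test was limma on log2(normalized count + 1), and fold changes are FF minus RF. Granulosa markers were present in every library, with FOXL2, a transcription factor of ovarian cells, at 15017 to 27392 in FF libraries and 13657 to 24440 in RF libraries. Of 18 tested granulosa markers, 5 were higher in FF hens and 0 lower at an adjusted p of 0.05 from limma. Of all tested genes 1.08% passed in either direction. At an unadjusted p under 0.05, 9 of these markers were higher and 3 lower, beside 17.8% of all tested genes in either direction. The median log2 fold change of the granulosa markers was 0.27. RF replicate 1 stood apart, since 10 of 18 tested theca and stroma markers were highest there, beside 2388 of all 13305 tested genes. CYP17A1, which makes androgens in theca cells, had 73 and 134 normalized counts in FF libraries and 1794, 84 and 207 in RF libraries. Of the theca and stroma markers 0 passed an adjusted p of 0.05, with 1 higher and 7 lower at an unadjusted p under 0.05. Their log2 fold change was below 0 in 15 and above 0 in 3 (median −2.04, against 0.01 over all tested genes). No marker passed among 11 endothelial, 11 white blood cell, 7 surface epithelium and 11 liver markers, where 0, 1, 2 and 3 were higher and 4, 4, 1 and 0 lower at an unadjusted p under 0.05. In the same order the median log2 fold changes of these lists were −0.83, −0.87, 0.20 and −0.11. Of 5 red blood cell markers 1 passed, ALAS2, a heme synthesis enzyme, which was higher in FF hens, and 4 were higher and 0 lower at an unadjusted p under 0.05 (median log2 fold change 2.03). Red blood cell markers summed to 3666 and 4013 normalized counts in FF libraries and 1624, 1302 and 1368 in RF libraries. ALAS2 held most of this sum, with 3369 and 3318 in FF libraries and 1528, 1230 and 1243 in RF libraries. HBA1, a globin, had 145 and 327 in FF libraries and 41, 27 and 60 in RF libraries. The part of red blood cells in the higher ZP3 and ZPD was not tested.

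Egg coat genes differed between FF and RF hens in both directions. ZPD was higher in FF hens and ZP2 lower, and these 2 of the 6 genes passed an adjusted p of 0.05 from limma. Over all tested genes the share called was 1.08%, with 0.842% (112 genes) higher in FF hens and 0.241% (32 genes) lower. With the libraries rescaled to equal totals 90 genes were higher and 70 lower, and the calls of ZPD and ZP2 held. In 5 of the 6 genes the FF and RF libraries did not overlap, with ZP3 and ZPD higher and ZP1, ZP2 and ZP4 lower, whereas 36.3% of all tested genes did not overlap. The same 5 genes were at an unadjusted p under 0.05, against 17.8% of all tested genes, with 8.22% of all tested genes lower at that p. In ZPAX the groups overlapped. Since ZP1 and UMOD stand in the tables of called genes that the study drew from these same libraries, their directions were known in advance.

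**Figure D1:**
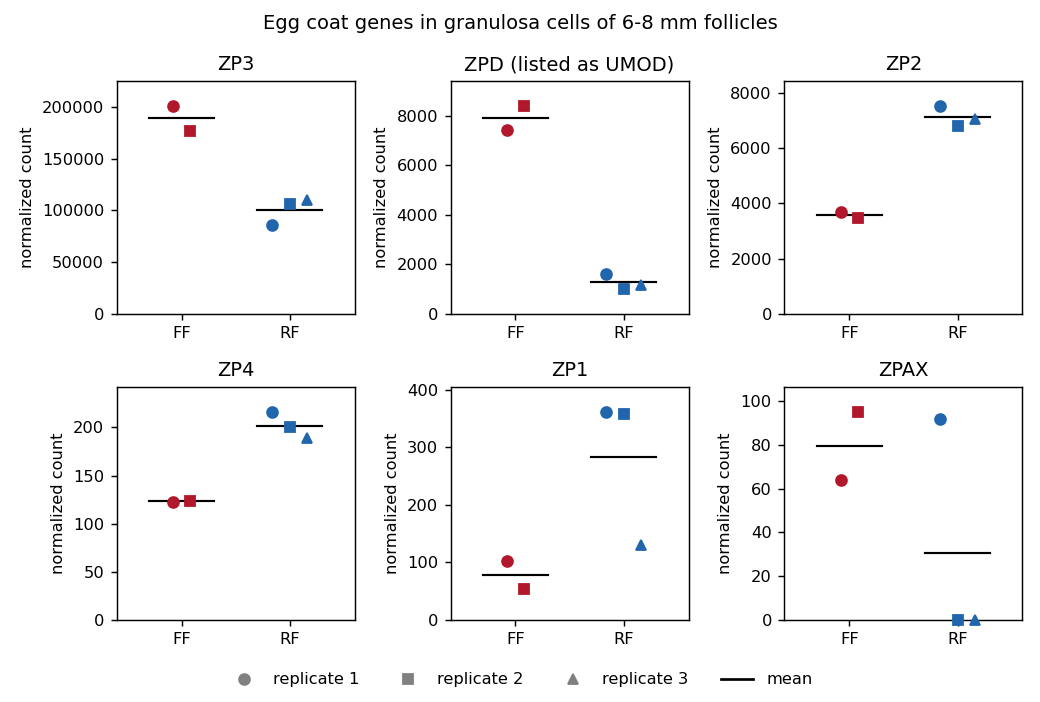
Normalized count (vertical axis, from 0) of each egg coat gene in the FF libraries and the RF libraries, with 1 point per library, the marker shape giving the replicate and the black line the group mean. FF points lie above all RF points for ZP3 and ZPD and below all RF points for ZP2, ZP4 and ZP1, and ZPAX is at 0 in RF replicates 2 and 3.

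On the normalized count per gene the members fell into 3 bands. ZP3 lay at 85703 or more in every library, ZP2 and ZPD lay between 1014 and 8398, and ZP1, ZP4 and ZPAX lay at 361 or below. ZP1 and ZP4 overlapped in level in the libraries as a whole, as did ZP2 and ZPD. The order of ZP2 and ZPD differed between the diets, with ZPD at the higher normalized count in both FF libraries and ZP2 in all 3 RF libraries. Whether this order holds per length of transcript was not tested.

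**Figure D2:**
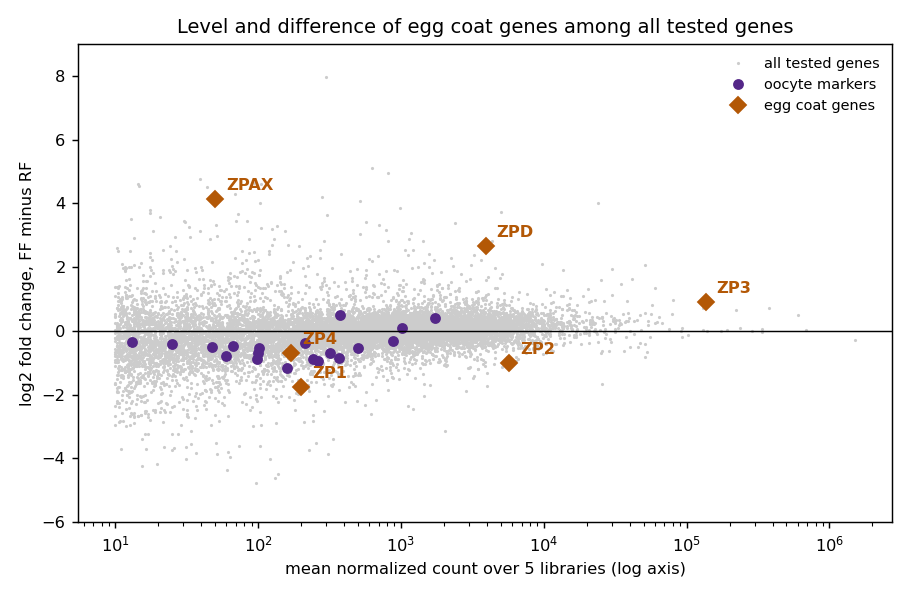
Mean normalized count over the 5 libraries (horizontal log axis) against the log2 fold change, FF minus RF (vertical axis), for all 13305 tested genes (grey), 19 oocyte markers (purple) and the 6 egg coat genes (orange). ZP3, ZP2 and ZPD lie to the right of the oocyte markers by level, ZP3 and ZPD lie above 0 while ZP1, ZP2 and ZP4 lie below 0, and the value of ZPAX rests on 2 libraries at 0.

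ZP3 (ENSGALG00000001559) is the coat protein that granulosa cells of birds secrete and that forms the coat's filaments with ZP1. It had 201159 and 176976 normalized counts in FF libraries and 85703, 106309 and 110188 in RF libraries. Both FF libraries lay above every RF library, by more than the spread within either group. ZP3 made up 0.682% and 0.613% of all normalized counts in FF libraries and 0.331%, 0.403% and 0.404% in RF libraries. It ranked 11 and 12 among all genes in FF libraries and 17, 16 and 16 in RF libraries. On the log2 scale the difference was 0.91 (standard error, SE, 0.18, 95% confidence interval 0.49 to 1.33), which did not pass the test at an adjusted p of 0.0697 from limma. In RefSeq the gene next to ZP3 is ZP3L1, a ZP3-like gene, and how the authors' counting treated reads shared by such copies is not stated in the sources used.

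Relative to GJA1 and GATA4, but not to FOXL2, ZP3 was higher in every FF library than in any RF library. The ratio of ZP3 to GJA1, the gap junction protein that couples granulosa cells, was 5.42 and 4.81 in FF libraries and 3.19, 3.72 and 3.49 in RF libraries. The ratio to GATA4, a granulosa transcription factor, was 5.89 and 4.57 in FF libraries and 2.82, 3.60 and 3.09 in RF libraries. The ratio to FOXL2 was 7.34 and 11.8 in FF libraries and 3.59, 4.35 and 8.07 in RF libraries, where the groups overlapped. These ratios do not depend on the scaling between libraries, and their partners were picked after values had been seen.

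ZPD (listed as UMOD, ENSGALG00000041143) encodes a coat protein of granulosa origin that is only loosely held in the mesh in birds. It had 7433 and 8398 normalized counts in FF libraries and 1615, 1014 and 1170 in RF libraries, and both FF libraries lay far above the RF libraries. Its mean was 7916 ± 682 over the FF libraries (SD, n = 2) and 1266 ± 312 over the RF libraries (SD, n = 3). ZPD rose by 2.67 on the log2 scale (SE 0.21, 95% confidence interval 2.17 to 3.17, adjusted p = 0.0115 from limma), which is 6.36-fold. By the adjusted p from limma it is the only member that also met the fold and level thresholds of the study, a log2 fold change past 1 in size and a group mean reaching 200. ZP1 met both of these but not the adjusted p from limma, which is not the test that the study used. Of all tested genes 0.849% passed by limma, 0.699% higher in FF hens and 0.15% lower. Without FF replicate 1 or 2 the log2 fold change was 2.76 and 2.58, and the adjusted p of 0.169 and 0.132 no longer passed.

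The ratio of ZPD to ZP3 was 0.0370 and 0.0475 in FF libraries and 0.0188, 0.00954 and 0.0106 in RF libraries. The groups did not overlap, and the ratio was 3.38-fold higher in FF hens (two-sided exact permutation test, p = 0.1, which is the lowest p possible with 5 libraries). The ratio of ZPD to GATA4 was 0.217 and 0.217 in FF libraries and 0.0532, 0.0343 and 0.0328 in RF libraries. CYP11A1, which makes pregnenolone from cholesterol, had a log2 fold change of 3.72, above that of ZPD. The ratio of ZPD to CYP11A1 was 0.647 and 0.775 in FF libraries and 1.30, 1.17 and 2.07 in RF libraries. The ratio to INHBB, an inhibin subunit, was 0.137 and 0.160 in FF libraries and 0.146, 0.0833 and 0.0595 in RF libraries, so the groups overlapped there. CYP11A1 and INHBB are among the genes that the study called higher in FF hens. All partners of ZPD were picked with earlier results of these data known.

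ZP2 (ENSGALG00000002428) encodes the coat protein that lies over the germinal disc in the hen's egg. It had 3686 and 3457 normalized counts in FF libraries and 7539, 6829 and 7069 in RF libraries. Both groups were tight, and every FF library lay far below every RF library. Its mean was 3572 ± 162 over the FF libraries (SD, n = 2) and 7146 ± 361 over the RF libraries (SD, n = 3). ZP2 fell by 1.0 on the log2 scale (SE 0.12, 95% confidence interval −1.27 to −0.73, adjusted p = 0.0229 from limma). The size of this change lay just under the fold threshold of the study. The call was lost without FF replicate 1 (adjusted p = 0.176), FF replicate 2 (0.135), RF replicate 1 (0.0838) or RF replicate 2 (0.0808), while the log2 fold change stayed between −1.05 and −0.95.

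ZP4 (ENSGALG00000005462) encodes another coat protein of the oocyte. It had 123 and 124 normalized counts in FF libraries and 216, 201 and 189 in RF libraries, so the groups did not overlap. Its log2 fold change was −0.70 (SE 0.22, 95% confidence interval −1.22 to −0.19), with an adjusted p of 0.174 from limma. ZP1 (ENSGALG00000031916) encodes the coat protein that cross-links the filaments. It had 103 and 54 normalized counts in FF libraries and 361, 357 and 130 in RF libraries. RF replicate 3 lay nearer to FF replicate 1 than to the other RF libraries, and ZP1 had the widest spread of these 3 genes. The log2 fold change was −1.76 (SE 0.52, 95% confidence interval −3.01 to −0.52), with an adjusted p of 0.164 from limma. Without RF replicate 3 it was −2.25 with an adjusted p of 0.0588.

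Several liver genes other than ZP1 were at or near 0 in these cells. APOB, the main protein of yolk-forming lipoprotein, was listed at 0 in every library, and VTG2, a yolk precursor, had 0 and 0 normalized counts in FF libraries and 4, 10 and 3 in RF libraries. ALB, serum albumin, had 276 and 77 normalized counts in FF libraries and 125, 84 and 166 in RF libraries. At an unadjusted p under 0.05, 3 of 11 tested liver markers were higher in FF hens and 0 lower. Of all tested genes 17.8% were at that p in either direction. The 3 were APOA1, AHSG and FETUB, with log2 fold changes of 0.44, 2.66 and 2.92, whereas ZP1 was lower. Summed over 21 liver markers, of which APOA1, an apolipoprotein also made outside the liver, held most and C3, a complement protein, much of the rest, the level was 28277 to 33824 in FF libraries and 21026 to 25756 in RF libraries.

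Oocyte markers were examined beside ZP2 and ZP4, because granulosa layers can carry oocyte RNA. Of 35 listed genes 21 were found and 19 were tested. None passed an adjusted p of 0.05 from limma, where 1.08% of all tested genes did, so that few calls could come from a list of this size. At an unadjusted p under 0.05, 1 was higher and 6 were lower in FF hens, beside 8.22% of all tested genes lower and 17.8% in either direction. The log2 fold change was below 0 in 16 of the 19 (median −0.53), whereas over all tested genes it was below 0 in 49% (median 0.01). ZP2, at a log2 fold change of −1.0, lay below 18 of the 19 and above 1. GDF9 and BMP15, growth factors of the oocyte that were chosen after their values had been seen, went the same way as ZP2. GDF9 had 175 and 146 normalized counts in FF libraries and 359, 274 and 258 in RF libraries (log2 fold change −0.87, adjusted p = 0.134 from limma). BMP15 had 445 and 346 in FF libraries and 682, 539 and 507 in RF libraries (log2 fold change −0.54, adjusted p = 0.251). The 3 most abundant markers were mixed. CCNB3, a cyclin, had 1820 and 2247 normalized counts in FF libraries and 1340, 1709 and 1535 in RF libraries, and PATL2, an RNA-binding protein of oocytes, had a log2 fold change of 0.09. CPEB1, which controls stored oocyte mRNA, had a log2 fold change of −0.31. Summed over the 21 markers, the level was 5927 to 6384 in FF libraries and 5874 to 7979 in RF libraries. RF replicate 1 held the highest value in 14 of the 19, and also in ZP1, ZP2 and ZP4. Of all 13305 tested genes, 2388 were highest in that library. In bulk RNA, fewer oocyte remnants and less RNA in each cannot be told apart, and the part of oocyte RNA in the lower ZP2, ZP4 and ZP1 was not tested.

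**Figure D3:**
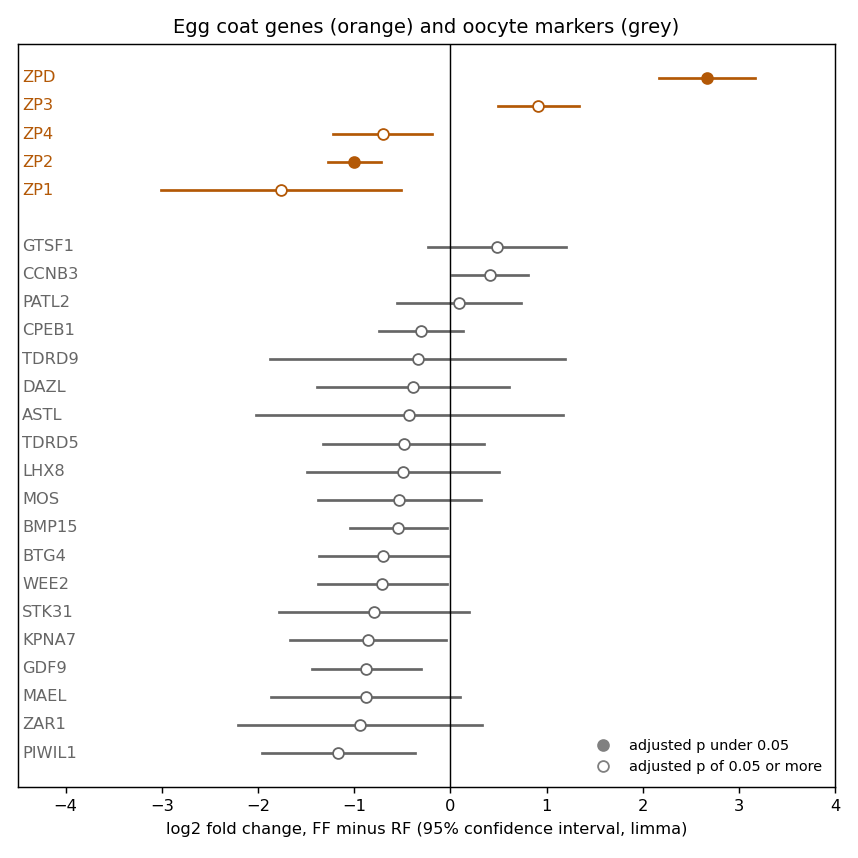
Log2 fold change, FF minus RF, with its 95% confidence interval from limma (horizontal axis) for ZPD, ZP3, ZP4, ZP2 and ZP1 (orange) and 19 oocyte markers (grey), filled where the adjusted p was under 0.05. Of the genes shown only ZPD and ZP2 are filled, and 16 of the 19 oocyte markers lie below 0; ZPAX, which is at 0 in 2 libraries, is left out.

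Ratios within a library set ZP2 against oocyte markers and ZP4, partners that were picked with earlier results of these data known. By normalized count ZP2 lay above CCNB3, the most abundant oocyte marker, in every library, at 3457 or more against 2247 or less. These values are not corrected for transcript length, and which cells the ZP2 RNA came from was not tested. The ratio of ZP2 to GDF9 was 21.1 and 23.7 in FF libraries and 21.0, 24.9 and 27.4 in RF libraries, which overlap (p = 0.5 by the same exact test). The ratio of ZP2 to BMP15 was 8.28 and 9.99 in FF libraries and 11.1, 12.7 and 13.9 in RF libraries, which do not overlap (p = 0.1 by the same exact test). The ratio to WEE2, a kinase that holds oocytes in meiotic arrest, was 18.1 and 13.7 in FF libraries and 14.9, 19.7 and 24.3 in RF libraries and overlapped. The ratio of ZP4 to ZP2 was 0.0334 and 0.0359 in FF libraries and 0.0287, 0.0294 and 0.0267 in RF libraries. This ratio was 1.22-fold higher in FF hens and did not overlap (p = 0.1 by the same exact test).

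The ratios of both granulosa products to ZP2 put the opposite directions of these genes into 1 value per library. The ratio of ZP3 to ZP2 was 54.6 and 51.2 in FF libraries and 11.4, 15.6 and 15.6 in RF libraries, 3.77-fold higher in FF hens. The ratio of ZPD to ZP2 was 2.02 and 2.43 in FF libraries and 0.214, 0.148 and 0.166 in RF libraries, 12.7-fold higher in FF hens. Since ZP3 and ZPD lay above and ZP2 below every RF library, neither ratio could overlap between the groups, and no test is given. The size of each ratio depends on the lengths of both transcripts, so only its difference between libraries was read.

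**Figure D4:**
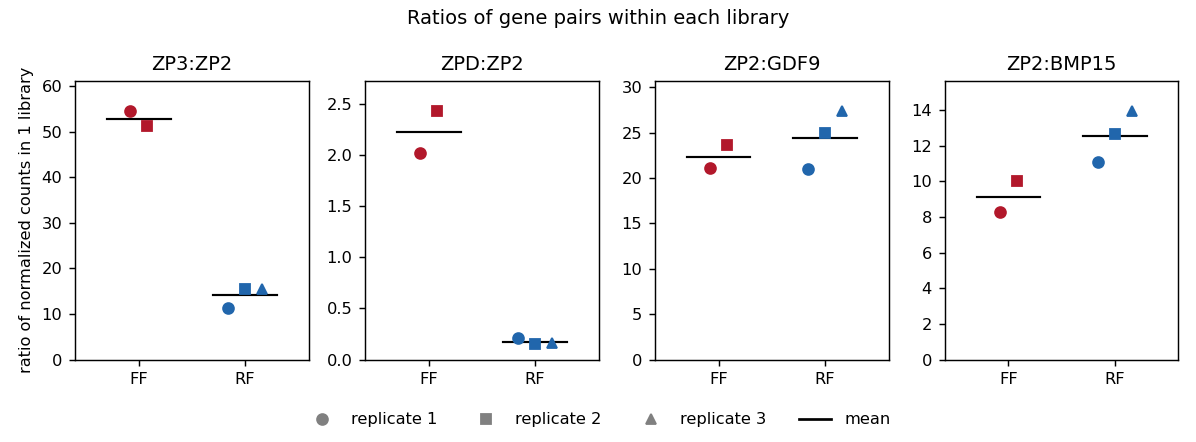
Ratio of the normalized counts of 2 genes within each library (vertical axes, from 0) for ZP3 to ZP2, ZPD to ZP2, ZP2 to GDF9 and ZP2 to BMP15, with 1 point per FF or RF library, the marker shape giving the replicate and the black line the group mean. FF libraries lie above RF libraries in the panels of ZP3 and ZPD, overlap with them in that of GDF9 and lie below them in that of BMP15.

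ZPAX (ENSGALG00000016465) was above 0 in both FF libraries and in 1 of the 3 RF libraries. It had 64 and 95 normalized counts in FF libraries and 92, 0 and 0 in RF libraries. RF replicate 1 thus lay within the range of the FF libraries, while it was listed at 0 in RF replicates 2 and 3. A count of 0 allows up to 3 reads, which is 2.88 normalized counts in RF replicate 2 and 2.44 in RF replicate 3, counting error only. The fitted log2 fold change of 4.12 (SE 1.94, adjusted p = 0.329 from limma) depends on the value added before taking logs and is no measure of size. Without RF replicate 1 the adjusted p was 0.0452, the one alternative of 14 in which it passed. ZP2 and ZP4 were present in RF replicates 2 and 3, with ZP4 at 201 and 189, and GDF9 there lay at 274 and 258.

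Genes of coat processing and regulation were read against the 1.08% of all tested genes called and the 17.8% at an unadjusted p under 0.05. At these sizes, lists with no call or a single one do not stand apart from that background. Proprotein convertases are enzymes, most of which cut secreted proteins at basic residues, and coat proteins are released by such cuts. Of 6 tested, 0 passed, with 2 higher and 1 lower at an unadjusted p under 0.05 (median log2 fold change −0.20). FURIN, the best known of them, had 11208 and 9142 normalized counts in FF libraries and 7373, 6217 and 7364 in RF libraries (log2 fold change 0.54, adjusted p = 0.135 from limma). PCSK2 had 1965 and 2353 in FF libraries and 3506, 3792 and 7652 in RF libraries (log2 fold change −1.12, adjusted p = 0.166). MBTPS1, a protease of the Golgi, had a log2 fold change of −0.07. Of 4 other tested genes whose proteins carry a zona pellucida domain, 0 passed, with 1 higher and 0 lower at an unadjusted p under 0.05. Of these ZPLD1 had 423 and 305 normalized counts in FF libraries and 187, 154 and 199 in RF libraries (log2 fold change 1.0, adjusted p = 0.105). TGFBR3 and ENG, coreceptors of the TGF-beta family, had −0.20 and −0.03.

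Of 27 listed genes known or proposed as regulators of coat genes, 23 were found and 22 tested. FIGLA, NOBOX, TCF4 and SMAD4 were not matched by symbol or RefSeq synonym, so they were not examined. The 22 tested genes include steroid receptors, gonadotropin receptors and the receptors and SMADs downstream of GDF9. At an unadjusted p under 0.05, 3 were higher in FF hens and 3 lower (median log2 fold change −0.02). At an adjusted p of 0.05, where 1.08% of all tested genes passed, 1 was higher and 0 lower. This was SMAD2, listed as SMAD2Z, which carries activin and GDF9 signals to the nucleus. It had 68418 and 69817 normalized counts in FF libraries and 20021, 21555 and 26469 in RF libraries (log2 fold change 1.62, SE 0.16, adjusted p = 0.0186 from limma). SMAD5, a SMAD of the BMP branch, had 19396 and 21842 in FF libraries and 11962, 11892 and 15702 in RF libraries (adjusted p = 0.111). FSHR, the FSH receptor, overlapped between the groups, with 5650 and 4591 in FF libraries and 3725, 4409 and 6380 in RF libraries.

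The genes with the profile most like that of each member were sought among 7954 or 7955 genes with symbols and a mean of at least 200, by the root mean square difference of log2 values centred on each gene's own mean over the 5 libraries. ZP2 was nearest to SLC35G1, at a difference of 0.0234, followed by COLEC10, a collectin, ATP2B4, a calcium pump, SCD, a fatty acid desaturase, and DGKQ, a diacylglycerol kinase, at up to 0.0968. None of these genes is among the oocyte markers listed. Markers with a mean below 200 could not appear, and 5 places among 7954 genes would rarely hold one of so short a list. The presence or absence of a marker among the nearest genes was therefore not read as a sign of where the RNA came from. SLC35G1 had 1210 and 1165 normalized counts in FF libraries and 2435, 2229 and 2277 in RF libraries. ZP3 was nearest to TOM1L2, UXS1, ARHGAP18, SENP5 and LGALSL, at 0.0626 to 0.0895, with TOM1L2 at 3398 and 3165 in FF libraries and 1647, 1841 and 1967 in RF libraries. ZP4 was nearest to STK39, MCCC2, LONRF1, CTNND2 and RAB32, at 0.0412 to 0.0602. ZPD was nearest to PLEKHA6, MAP7D2, RGCC, SESN2, a stress-response gene, and TFPI2, a protease inhibitor, at 0.186 to 0.387. ZP1 was nearest to TRIL, AKR1D1, ARHGDIB, ZAR1 and RGS9, at 0.311 to 0.466, and of these ZAR1 is among the oocyte markers. ZAR1 had 260 and 94 normalized counts in FF libraries and 428, 360 and 176 in RF libraries. No gene came near ZPAX, for which the smallest difference was 1.86, from STAR, the cholesterol transporter of steroid synthesis.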

How the data were processed

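Poly(A)-selected, directional RNA-seq libraries of granulosa cells, 1 per hen, were read from the deposited table. Per the labels, Trim Galore, STAR and the galGal6 build were used upstream, and the authors normalized gene counts with DESeq2. The deposited values, rounded to whole numbers by the authors, were treated as a score and not as a raw count. Neither the read counter nor any version is stated in those sources. From the spacing of low values, 1 read was worth 0.813 to 1.21 normalized counts for the 5 libraries. Below 1 the rounding merges read counts, so whole reads were not recovered and no count model was run.

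limma 3.58.1 in R 4.3.3 was fitted to log2(normalized count + 1), with a variance trend; p-values were adjusted by Benjamini-Hochberg over all 13305 genes whose mean reached 10 (3 residual degrees of freedom, prior 3.7). The fit was tested on simulated data. Exact permutation tests were run over the 5 libraries and are two-sided. Labels do not say that replicate numbers pair hens. Named genes were all members, list members past an adjusted p of 0.05 (at most 4), the 3 most abundant of lists on coat biology, and the 5 nearest profiles. Members and lists were chosen with earlier results of these data known. Symbols were matched directly or through RefSeq synonyms (GRCg7b, names and gene order only). Alternatives changed the pseudocount, the minimum mean, the scaling, the variance model and the libraries used. Levels per kilobase were not computed, since no transcript lengths were at hand. matplotlib 3.10.9 (Python 3.11.15) drew the figures. Some items are not reported here.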

Additional observations from a re-analysis of the deposited data

How the results depend on the processing

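All 6 egg coat genes kept their direction under all 14 alternatives, and ZP1, ZP3 and ZP4 missed an adjusted p of 0.05 from limma in each (ZP3 0.0586 to 0.289, ZP1 0.0588 to 0.420, ZP4 0.123 to 0.377). With no minimum mean, 13 genes were called higher and 1 lower, 0 egg coat genes were lower, 0 coat regulators were called, and ZP2 (−1.0) had an adjusted p of 0.0558. Without the trend limma called 0 genes in either direction (2188 at an unadjusted p under 0.05, 5 of them egg coat genes), and so 0 coat regulators, and ZPD (2.67) and ZP2 (−1.0) had adjusted p values of 0.0655 and 0.0934. Equal totals gave 70 genes lower in FF hens, against 32, and put the median over all genes at −0.13 on the log2 scale, against 0.01. ZP2 was then at −1.14 and ZP3 at 0.78. With the replicate block, a term for the replicate number, 53 genes were higher and 9 lower, 0 egg coat genes were called lower and ZP2 (−1.01) had an adjusted p of 0.0508. Deviations of same-numbered libraries from their group means had correlations of 0.11 and −0.07. With 2 FF libraries the deviations of 1 are the exact opposite of the other's. These values therefore cannot show whether replicate numbers pair hens.

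When single libraries were left out, 1 to 97 genes were called higher and 0 to 31 lower. Egg coat genes called ran between 0 and 2 higher and 0 and 1 lower, and coat regulators called between 0 and 1. The log2 fold changes ran between −1.05 and −0.95 for ZP2, 2.52 and 2.86 for ZPD, and 3.03 and 6.30 for ZPAX, which was called only without RF replicate 1 (6.30). Where an FF library was left out, the lone FF library was assumed to vary like the RF libraries. The causes of these changes were not tested. Levels per kilobase were not run.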

Other observations

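The genes that neighbour the egg coat genes in RefSeq (GRCg7b, used for gene order only) were read in the same libraries, taking 2 protein-coding genes on each side. Of these 24 neighbours 12 were tested, and the 2 that passed an adjusted p of 0.05 both lie beside ZPD. Of all tested genes 1.08% passed. DRC7, a gene of motile cilia, had 427 and 497 normalized counts in FF libraries and 177, 137 and 171 in RF libraries (log2 fold change 1.51, SE 0.22, adjusted p = 0.0370 from limma). ADGRG1, an adhesion receptor, had 8644 and 8687 in FF libraries and 4281, 4214 and 3942 in RF libraries (log2 fold change 1.06, SE 0.11, adjusted p = 0.0216). This observation was made after values had been seen, and whether the neighbourhood plays a part was not tested.

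The absence of ZPAX from RF replicates 2 and 3 was not shared by its neighbours GEN1, at 1191 and 1321 normalized counts there, or RDH14, at 129 and 149. Of 19577 genes above 0 in any library, ZPAX was the only gene at 0 in RF replicates 2 and 3 and at 50 or more in each of the other 3 libraries. Only 3 genes were at 0 in 1 to 3 libraries and at 50 or more in all others. A minimum of 50 was chosen after the values of ZPAX had been seen.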
